A study of Homo sapiens with 12 samples.

Results

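Broad H3K27ac promoter domains are long, nearly unbroken stretches of acetylated chromatin around gene starts, and here they were the widest promoter regions in HCT116 colorectal cancer cells. The 20000 highest-scoring peaks of each of the 6 H3K27ac libraries were pooled and merged within 100 bp, leaving 38598 regions of 937 bp in the median. Of these, 11219 (29.1%) had a protein-coding transcript start inside them or at most 1 kb away and were called promoter regions. A width of 4000 bp or more was reached by 28 regions, of which 14 were promoter regions. Since this was fewer than 200, the members were chosen by taking the 200 widest promoter regions, 1.78% of all promoter regions. Their merged widths ran from 2912 to 4965 bp with a median of 3187 bp. They lay at the starts of 243 protein-coding genes of the 19676 in the annotation (1.24%).

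Members were selected on peak width in these same libraries, so their width is a description and carries no test. At the limit, the last members were the regions of CXXC5 at 2915 bp, RBPJ at 2914 bp and DSTN at 2912 bp. The nearest regions outside were those of RUNX1 at 2912 bp, HMGB2 at 2906 bp and LAD1 at 2903 bp. DSTN and RUNX1 had the same width and were separated only by genome order.

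HCT116 is an established colorectal cancer cell line in which the RAS to ERK kinase cascade is constitutively active. The libraries came from untreated cells, from cells given 1 μM cobimetinib for 24 hours and from cells given TNFα at 100 ng/mL for 24 hours, with 2 H3K27ac CUT&RUN libraries per condition. Cobimetinib inhibits MEK1, the kinase that activates ERK, and TNFα is an inflammatory cytokine that activates NF-κB and AP1 transcription factors. All 3 conditions share the one cell line, no genetic change was made, and the 6 IgG libraries of the series were not analysed here, so no background signal was subtracted.

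Acetylation of lysine 27 on histone H3 is written by the acetyltransferases p300 and CBP and marks active promoters and enhancers. At most active promoters it forms a narrow pair of peaks on the nucleosomes that flank the start of transcription. At a smaller number of genes it spreads over several kilobases, and such broad domains have been described at genes for cell identity, at highly transcribed housekeeping genes and at genes of the immediate response to signals. CUT&RUN cuts out marked nucleosomes with an antibody-tethered nuclease, and the freed DNA is sequenced. Signal from a culture does not separate fewer marked cells from less acetylation per cell.

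Promoter sequences of 7 genes are shown because their domains span the range of promoter types among the members. KRT8, a keratin of simple epithelia, had one of the few domains that was wide in every library. E2F3 and CLDN4 had domains that were wider with TNFα than with cobimetinib, HMGCS1 stands for the sterol genes and H2BC11 for the histone genes, EEF1A1 is a housekeeping gene, and KLF6 is a zinc finger transcription factor with a domain over 4000 bp. Each sequence is the 250 bases before a RefSeq gene start in GRCh38.p14, written 5′ to 3′ on the strand of the gene, and each lay inside the broad domain. Capitals mark words that are known binding sites of promoter factors on either strand: TGACTCA or TGAGTCA for AP1, GGGCGG for SP and KLF factors, CCAAT for NF-Y, CCGGAAG for ETS factors, CACGTG for E box factors, TGACGTCA for CREB and ATF factors, and TATAAA for the TATA box.
KRT8 at chr12:52926470-52926719, minus strand: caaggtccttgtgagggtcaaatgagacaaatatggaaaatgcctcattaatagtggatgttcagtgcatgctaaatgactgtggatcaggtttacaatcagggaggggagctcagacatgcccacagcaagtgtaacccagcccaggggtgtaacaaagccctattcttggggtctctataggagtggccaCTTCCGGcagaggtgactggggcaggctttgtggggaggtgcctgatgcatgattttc
CLDN4 at chr7:73830746-73830995, plus strand: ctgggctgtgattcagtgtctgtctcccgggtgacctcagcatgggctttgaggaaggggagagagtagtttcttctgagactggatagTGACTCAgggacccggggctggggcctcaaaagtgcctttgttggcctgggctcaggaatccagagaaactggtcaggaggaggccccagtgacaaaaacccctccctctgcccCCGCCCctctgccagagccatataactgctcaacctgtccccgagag
HMGCS1 at chr5:43313413-43313662, minus strand: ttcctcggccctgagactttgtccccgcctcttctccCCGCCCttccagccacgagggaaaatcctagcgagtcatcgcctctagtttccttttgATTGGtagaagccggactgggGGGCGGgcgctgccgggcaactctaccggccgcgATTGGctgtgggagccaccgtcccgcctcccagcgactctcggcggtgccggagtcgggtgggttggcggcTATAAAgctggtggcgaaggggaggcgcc
E2F3 at chr6:20401629-20401878, plus strand: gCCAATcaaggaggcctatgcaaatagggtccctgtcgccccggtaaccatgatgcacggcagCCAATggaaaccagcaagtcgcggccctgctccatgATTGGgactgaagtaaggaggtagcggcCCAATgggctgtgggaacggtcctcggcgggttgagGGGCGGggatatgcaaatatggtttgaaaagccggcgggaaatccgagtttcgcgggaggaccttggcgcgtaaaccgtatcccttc
EEF1A1 at chr6:73521033-73521282, minus strand: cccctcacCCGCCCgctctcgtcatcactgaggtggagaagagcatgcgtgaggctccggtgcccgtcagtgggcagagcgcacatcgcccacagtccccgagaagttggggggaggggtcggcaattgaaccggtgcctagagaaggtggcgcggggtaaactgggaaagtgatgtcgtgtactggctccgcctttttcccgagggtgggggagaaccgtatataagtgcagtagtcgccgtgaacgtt
H2BC11 at chr6:27132796-27133045, minus strand: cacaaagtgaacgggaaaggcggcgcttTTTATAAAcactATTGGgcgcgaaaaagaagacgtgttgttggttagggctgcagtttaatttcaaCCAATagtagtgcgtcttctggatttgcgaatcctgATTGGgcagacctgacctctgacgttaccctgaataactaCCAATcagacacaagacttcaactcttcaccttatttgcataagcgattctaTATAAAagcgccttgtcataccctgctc
KLF6 at chr10:3785210-3785459, minus strand: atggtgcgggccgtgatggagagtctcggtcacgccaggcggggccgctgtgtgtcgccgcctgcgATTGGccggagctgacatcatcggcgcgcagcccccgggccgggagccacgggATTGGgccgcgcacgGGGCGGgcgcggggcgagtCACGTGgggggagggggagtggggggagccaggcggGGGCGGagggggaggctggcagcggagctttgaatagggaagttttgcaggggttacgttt

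The KRT8 window, which lies at an alternative start and not at the canonical start of the gene, held 1 CpG in 250 bases, a single ETS word and none of the SP and KLF word, whereas the KLF6 window held 28 CpGs at a GC content of 72.4%. CLDN4, which encodes a tight junction claudin, held 1 AP1 word and 1 SP and KLF word with 4 CpGs. In the H2BC11 window, which lies between divergent histone genes, 4 CCAAT words and 3 TATA words were found. Of these TATA words, 2 overlapped in 1 stretch (TTTATAAA), read on opposite strands. HMGCS1 held 2 CCAAT words, 2 SP and KLF words and 1 TATA word. E2F3 held 4 CCAAT words. Of the 243 genes with a domain, 207 were found by symbol in the RefSeq promoter table and 177 had a window of 300 bases (250 before to 50 after a start) inside their domain. Over these 254 windows, the SP and KLF word was present in 74.0%, the ETS word in 18.5%, the CCAAT word in 31.9%, the TATA word in 7.48% and an AP1 word in 3.54%. Over all 21558 windows of protein-coding genes the shares were 56.8%, 12.9%, 34.8%, 9.46% and 4.03%. These windows belong to 15307 genes, while 11248 protein-coding genes had a promoter region here, so genes without one are included. The E box word was present in 9.45% against 8.35% and the CREB and ATF word in 2.36% against 2.30%. The median GC content of the windows was 65.7% against 62.3%, and these shares describe sequence, not binding. Against all promoter regions, the SP and KLF and ETS words were not denser in the domains within 500 bp of the canonical start. There the SP and KLF word had 4.48 against 4.58 per kb and the ETS word 0.354 against 0.478 per kb.

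The 6 libraries did not resolve broad domains equally well. The deposited peak lists held 69813 to 124771 peaks per library. Read depth is not given in these lists, so no count of reads stands behind a width. The median width of the 20000 peaks was 380 bp in untreated replicate 2, a library whose peak names mark it as merged after resequencing, and 922 to 1265.5 bp in the other 5 libraries. Covered width below means the base pairs of a domain covered by the 20000 highest-scoring peaks of 1 library, and rank means the position of the highest-scoring peak in the domain among all peaks of that library, with 1 the best. A covered width of 0 means that no peak of the domain was among the 20000, which also happens where the peak ranked just past 20000. Markers of the cell line were present in part. Of 9 epithelial and colorectal markers, 5 had a promoter peak among the 20000 in at least 1 library. These were KRT8 in 6 libraries, EPCAM in 5, CDX2 in 4, KRT18 in 3 and KRT19 in 1, while CDH1, CDX1, CEACAM5 and VIL1 had none. The best KRT8 peak of each library was that of its broad domain, which was assigned to an alternative start and not the canonical one. Of 10 markers of blood, endothelium, fibroblasts, muscle, glia, liver and red cells, 1 had such a peak, PECAM1 in 1 cobimetinib library.

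In its widest library a broad domain was mostly covered by 1 long peak, and in the other libraries often by several peaks. The library with the widest coverage of a domain covered a median of 93.0% of its merged width, with a lowest value of 67.1%. A peak of 2000 bp or more was present in at least 1 library at 188 of the 200 domains. Untreated replicate 1 was the widest library at 98 domains, TNFα replicate 1 at 43, cobimetinib replicate 2 at 27, cobimetinib replicate 1 at 21, TNFα replicate 2 at 11 and untreated replicate 2 at none. Within single libraries, 2 or more peaks lay in 28 and 56 domains of the untreated, 79 and 73 of the cobimetinib and 66 and 76 of the TNFα libraries. The median longest peak was 2686.5 and 637.5 bp, 1844 and 1843.5 bp, and 2231.5 and 1596.5 bp. All 6 libraries had a peak in 158 domains, 5 libraries in 34 and fewer in 8.

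The median covered width of the 200 domains was 2782.5 bp in untreated replicate 1 and 795.5 bp in untreated replicate 2. It was 2289.5 and 2290.5 bp in the cobimetinib libraries, and 2511 and 2030 bp in the TNFα libraries. The untreated pair therefore lay on either side of all 4 treated libraries. Median ranks were 7020.5 and 6180 in the untreated, 5747.5 and 4877 in the cobimetinib and 5639.5 and 6606 in the TNFα libraries. Between 7 and 14 of the 200 domains ranked among the 1000 best peaks of a library. The matching share over all promoter regions was not counted, so nothing is read from this number. Over all 11219 promoter regions, the median rank ran from 10709 to 23318. Within the 200 domains, covered width and rank were loosely related, with a Spearman correlation across domains of -0.14 in untreated replicate 1, -0.22 to -0.36 in the 4 treated libraries and -0.65 in untreated replicate 2. Domains of one library share its depth and are not independent, so these values are descriptions.

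**Figure D1:**
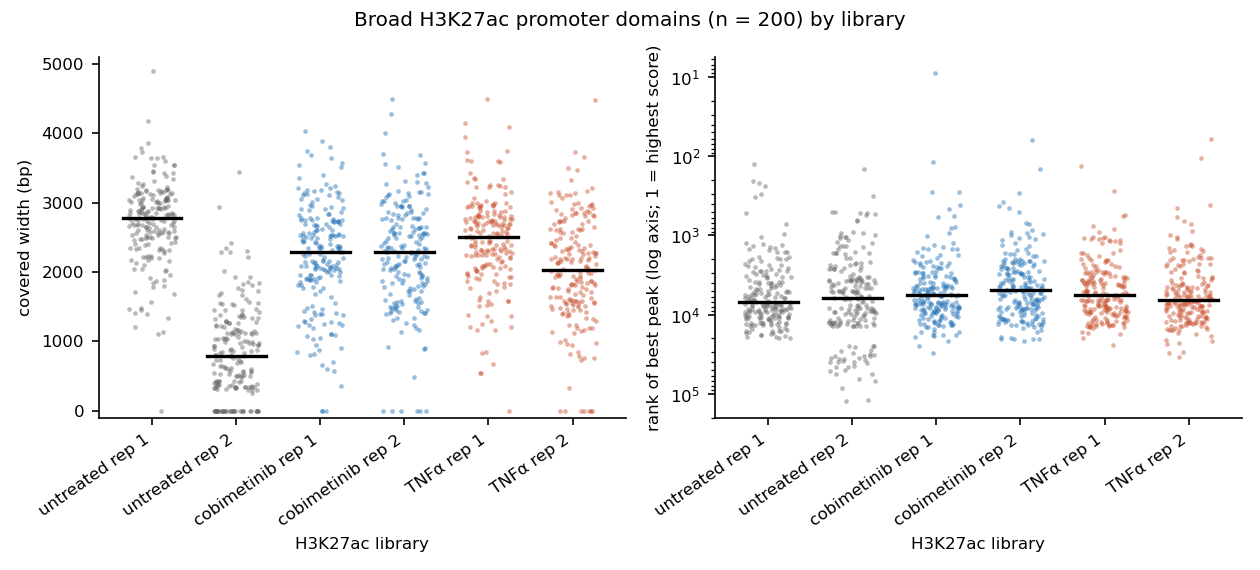
Covered width in bp (left) and rank of the best peak on an inverted log axis (right) of the 200 broad domains in each of the 6 H3K27ac libraries. Each point is a domain and the black bars are medians. Untreated replicate 2 had a median covered width of 795.5 bp, below the 2030 to 2782.5 bp of the other 5 libraries, while the median ranks lay between 4877 and 7020.5 in all 6.

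The widest domain was that of SOCS6, which encodes an adaptor that dampens receptor tyrosine kinase signaling. It spanned chr18:70286396-70291360, 2649 bp upstream and 2315 bp downstream of the canonical start, nearly all of it intergenic or intronic. Its covered width was 4898 and 1362 bp in the untreated, 3508 and 4494 bp in the cobimetinib and 4146 and 3736 bp in the TNFα libraries. Untreated replicate 2 stood apart, and the other 5 libraries covered 3508 bp or more. Its ranks were modest, at 3633 to 12780, and its peak stood lower in both TNFα lists (8400 and 12780) than in both cobimetinib lists (7345 and 6095).

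SFR1, a gene of recombinational DNA repair, had the next widest domain (4603 bp) and the best mean rank of the 200 members (224). This region lay upstream of the gene, ending 392 bp before the canonical start. Its covered width was 3433 and 2415 bp in the untreated, 3574 and 3024 bp in the cobimetinib and 4498 and 4483 bp in the TNFα libraries. The ranks were 207 and 145, 287 and 511, and 133 and 60. Both TNFα libraries were wider and better ranked than the other 4 libraries.

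Of the other domains of 4000 bp or more, that of DUSP4 (4521 bp) belongs to a phosphatase that inactivates ERK. COQ8B and ITPKC shared a domain of 4502 bp, with the most AP1 words of any member (6). The remaining ones were NAALADL2 (4316 bp), the translation elongation factor gene EEF1A1 (4297 bp), the carbohydrate kinase gene FGGY (4227 bp), the engulfment adaptor gene GULP1 (4221 bp), the RNA-binding protein gene RBM15 (4095 bp), KLF6 (4090 bp), the transcription kinase gene CDK13 (4083 bp), the FLII and MIEF2 domain (4037 bp), the splicing regulator gene HNRNPL (4018 bp) and a histone cluster with BOLA1, H2AC20, H2AC21 and H2BC21 (4015 bp). The nearest regions below 4000 bp were those of the helix-loop-helix inhibitor gene ID2 (3960 bp), the H3K27 demethylase gene KDM6B (3909 bp) and a domain shared by CLDN6, HCFC1R1, THOC6 and TNFRSF12A (3881 bp). The last and the BOLA1 domain held the most genes, 4 each. KDM6B and NR4A2, the latter an orphan nuclear receptor of the immediate-early response, each had 2 separate broad domains.

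The domain of EEF1A1 was covered over 4181 and 2302 bp in the untreated, 3126 and 3109 bp in the cobimetinib and 2948 and 3326 bp in the TNFα libraries, so the treated groups overlapped. KRT8 was wide in every library, with 3548 and 2942 bp, 3691 and 3392 bp, and 3600 and 3663 bp, and ranks between 319 and 2268. BRD2, a bromodomain reader of acetylated histones that shares its domain with HLA-DMA, had 3184 and 2214 bp, 3215 and 3279 bp, and 3121 and 3003 bp, with ranks between 238 and 923. S100A2, a calcium-binding protein of epithelia, had 3221 and 1926 bp, 3210 and 2862 bp, and 3153 and 3061 bp, with ranks between 300 and 1023. Other members of the 10 with the best mean rank were HMMR with NUDCD2 (450), SEPTIN9 (490.5), LEKR1 (699.5), ZBTB38 (1000.2), LPXN with ZFP91 (1397) and SLC25A28 (1438.5), where BRD2 had 606, S100A2 575 and KRT8 1155. Ranked by covered width among all promoter regions, 16 domains were among the 200 widest in every library and 19 in 5 of 6. Besides KRT8, BRD2, S100A2, SFR1 and EEF1A1, the former included SEPTIN9, LEKR1, ANXA11 and the NR4A2 domain at its canonical start. In contrast, 14 domains were among the 200 widest of no single library.

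The members lay on every autosome, on the X chromosome and on the mitochondrial genome, with 21 on chromosome 1 and 18 on chromosome 17. The mitochondrial genome gave 2 of them, at MT-ND1 with MT-ND2 and at MT-CYB, MT-ND5 and MT-ND6. Mitochondrial DNA is not wrapped on histones, so these are peaks that the rule admits and not acetylated promoters. The MT-ND1 and MT-ND2 domain was covered over 3315 to 3795 bp in all 6 libraries and was the widest promoter region of untreated replicate 2. Leaving both mitochondrial domains out moved none of the medians below by more than the spread between replicates.

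Function was assigned from general knowledge after the members were seen, so the groups below are descriptions. Among 243 genes, 135 were placed in 11 groups that covered 128 domains. The largest was transcription factors and co-repressors, with 32 genes in 31 domains, such as KLF6, KLF10, SP1, NR4A2, ID2, E2F3, IRF1, NFE2L2, RBPJ and several ZBTB genes. RNA binding, splicing and decay had 19 genes, such as HNRNPL, HNRNPF, HNRNPU, RBM15 and ZFP36L1. Kinases, phosphatases and signaling inhibitors had 17, with DUSP4, SOCS6, TRIB1 and MET among them. BMP4, a secreted ligand, was placed in this group as well. Epithelial structure and the cytoskeleton under the membrane had 12 (KRT8, CLDN4, EZR, CAV1), translation 10, chromatin enzymes and readers 9, ubiquitin and protein turnover 9, replication-dependent histones 8, mitosis 7 (ECT2, HMMR, KIF11), cell death and survival 6 (CFLAR, CASP9, BIRC2, TNFRSF10A, TNFRSF12A, PAWR), and sterol and fatty acid metabolism 6 (HMGCS1, FASN, ACSL5, GGPS1 and MID1IP1 among them). Median widths of the groups differed little, from 3095 to 3420 bp, with the histone domains at the upper end.

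Gene lists of pathways and families gave the share of each with a broad domain, beside 1.24% of all protein-coding genes. Of those 19676 genes, 11248 had a promoter region, so this reference is low for lists in which most genes had one. Replication-dependent histones had 8 of 69 genes (11.6%), which share 4 domains, so their number of independent regions is 4. KLF and SP factors had 3 of 27 (KLF6, KLF10, SP1). TGFβ and BMP signaling had 2 of 24 (BMP4, ID2), growth factor signaling 2 of 26 (MET, SHC1), TNF and NF-κB targets 2 of 27 (BIRC2, IRF1), epithelial adhesion and keratins 2 of 30 (CLDN4, KRT8), splicing factors 3 of 47 (HNRNPF, HNRNPL, HNRNPU) and chromatin regulators 2 of 37 (BRD2, KDM6B). ERK targets and feedback inhibitors had 1 of 25 (DUSP4), AP-1 and immediate-early factors 1 of 23 (KLF10), Wnt targets 1 of 25 (BMP4), intestinal transcription factors 1 of 27 (ID2), G1 and p53 targets 1 of 31 (E2F3) and HOX genes 1 of 39 (HOXB6). Cytosolic ribosomal proteins had 3 of 86 (3.49%, with RPL23, RPL26 and RPS12), and 83 of the 86 had a promoter region. None of 156 nuclear genes for the mitochondrial ribosome and respiratory chain had a domain, and 149 had a promoter region, with a median width of 1663 bp. That list leaves out the genes on the mitochondrial genome itself. Proteasome subunits (37 of 39 with a promoter region), YAP-TEAD targets (18 of 21), SOX factors (5 of 19), forkhead factors (20 of 45) and olfactory receptors (5 of 381) had none either, and numbered ZNF genes had 3 of 509. Most lists hold 1 to 3 such genes, and no test was made on them.

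The domains extended to both sides of the start. For the 179 domains assigned to the canonical start of a gene, a median of 1642 bp lay upstream and 1513 bp downstream, against 636 and 921 bp for the 9787 such promoter regions in all. More of the domain lay downstream than upstream in 46.4% of the 179, against 63.2% of all such promoter regions and 56.0% of the 800 promoter regions that followed in width. A median of 1153 bp was intronic, 209 bp exonic and 1672 bp outside the gene. The domain covered the whole gene in 9 cases, which include short genes such as CLDN4 and the histone genes. The H2AC11 and H2BC11 domain, for example, spanned 3515 bp, of which the annotated H2BC11 gene took 480 bp. More than 1 protein-coding gene started at 19.0% of the domains, against 14.6% of all promoter regions, which a wider region makes more likely by its size alone.

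Coverage was highest within 550 bp of the start and fell on both sides. The start itself was covered in 87.2% and 27.4% of the 179 domains in the untreated libraries, in 61.5% and 70.4% in the cobimetinib libraries and in 71.5% and 61.5% in the TNFα libraries. At 500 bp into the gene the shares were 81.0% and 19.6%, 54.2% and 55.3%, and 67.6% and 43.6%. At 500 bp upstream they were 76.5% and 27.9%, 68.2% and 71.5%, and 71.5% and 62.0%. The cobimetinib libraries thus covered upstream more often than downstream positions at this distance, as did TNFα replicate 2, whereas TNFα replicate 1 was nearly even, and at 500 bp downstream the cobimetinib libraries lay between the TNFα libraries.

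**Figure D2:**
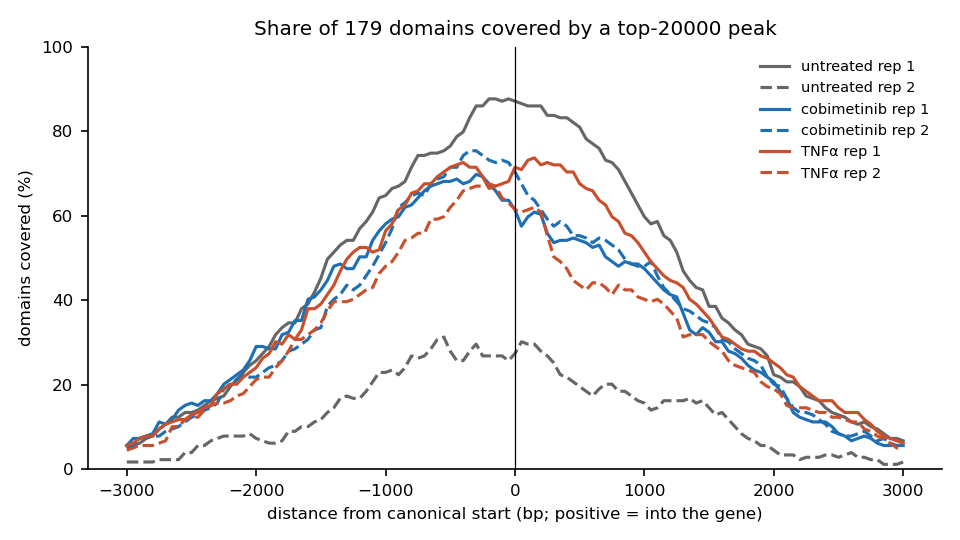
Share of the 179 domains with a canonical start that is covered by one of the 20000 highest-scoring peaks, by distance from the start in bp, for each library. Solid lines are replicate 1 and dashed lines replicate 2. Untreated replicate 1 covered 87.2% and untreated replicate 2 covered 27.4% of starts, with the 4 treated libraries between them at 61.5% to 71.5%.

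Base composition separated the domains from distal regions of like width more than from other promoters. The median GC content of the 200 domains was 55.6%, against 57.9% over all promoter regions and 42.8% over the 200 widest distal regions. The observed to expected ratio of CpG was 0.669, against 0.704 and 0.235. Members ranged from PRKACB at 30.4% GC to FASN at 74.3%. AP1 words occurred at 0.277 per kb in the domains, 0.198 per kb in the next 800 promoter regions, 0.173 per kb in all promoter regions and 0.714 per kb in the 200 widest distal regions. At least 1 AP1 word was present in 106 of the 200 domains and in 20.6% of all promoter regions, a share that grows with length. HMGCS1 had 5 AP1 words in 3224 bp. The SP and KLF word was less dense in the domains (2.32 per kb) than in all promoter regions (2.96 per kb), and so was the ETS word (0.197 against 0.291 per kb). The NF-κB word had 0.279 per kb against 0.271 per kb.

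Sequence near the start and in the rest of the domain was also counted apart. Within 500 bp of the canonical start, for domains that have one, the sequence had 63.7% GC and 4.48 SP and KLF words per kb, against 63.8% and 4.58 over all promoter regions, and the ETS word had 0.354 against 0.478 per kb. In the rest of the region the domains had 52.4% GC against 51.5%, and 0.322 AP1 words per kb against 0.199 per kb. The AP1 density of the part beyond 500 bp was 0.226 per kb in the next 800 promoter regions. That part had a median of 2276 bp in the domains, 1538.5 bp in the next 800 and 715 bp in all promoter regions. The densities are therefore not taken over like lengths. Near the start, AP1 words had 0.124 per kb in the domains, 0.100 per kb in the next 800 and 0.0947 per kb in all.

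**Figure D3:**
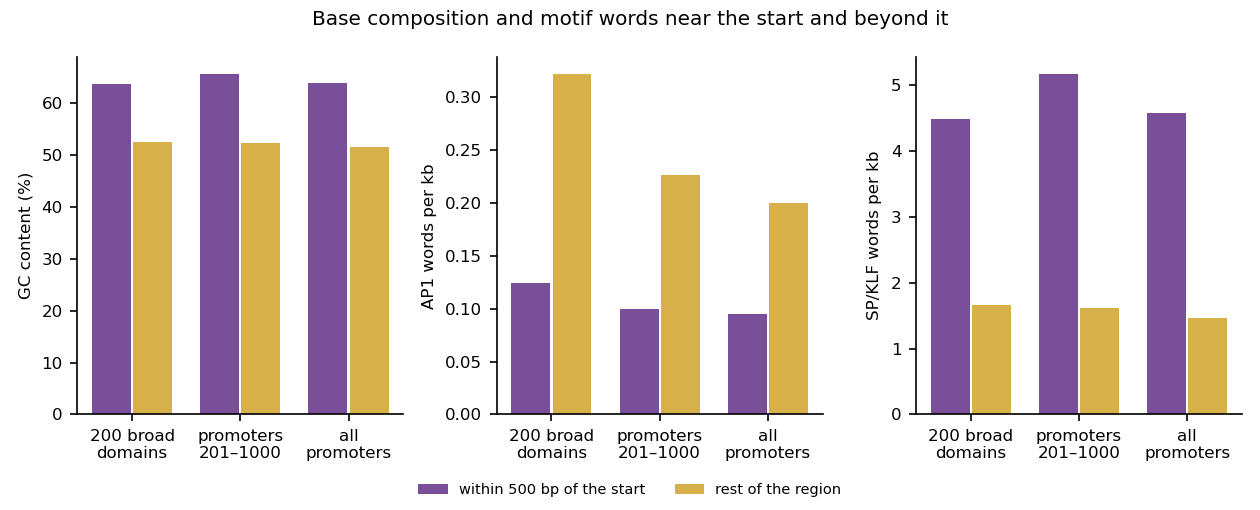
GC content in percent, AP1 words per kb and SP or KLF words per kb within 500 bp of the canonical start and in the rest of the region, for the regions with a canonical start: 179 of the 200 broad domains (176 of them reach within 500 bp of it), 732 of the next 800 promoter regions by width (718) and all promoter regions. Bars are pooled over the regions and start at 0. The AP1 density beyond 500 bp was 0.322 per kb in the domains and 0.199 per kb in all promoter regions, over parts of unlike length (median 2276 and 715 bp). GC content was within 2 percentage points at either position between these sets.

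The comparison of TNFα with cobimetinib sets an inflammatory stimulus against inhibition of MEK and does not use the untreated libraries. Over the 200 domains the median difference in mean covered width, TNFα minus cobimetinib, was 3.25 bp, with a middle range of -467 to 408 bp, and the medians of the cobimetinib libraries (2289.5 and 2290.5 bp) lay between those of the TNFα libraries (2511 and 2030 bp). The same median was -101 bp over the next 800 promoter regions and -58.5 bp over all promoter regions. The log2 rank differed by a median of 0.08, that is, slightly lower in the TNFα lists, against 0.26 over all promoter regions. With 2 libraries against 2, an exact permutation test cannot give a two-sided p under 0.333, and no test is given here since these widths chose the members. Taking instead the 200 widest promoter regions of the untreated libraries, which play no part in this comparison, gave a median difference of 11.5 bp.

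Single domains moved in both directions around that median. Both TNFα libraries were wider than both cobimetinib libraries at 43 domains (21.5%), where the background over all promoter regions was 12.1%. Both were narrower at 43 domains (21.5%), with a background of 20.7%. Both TNFα ranks were lower in the list at 43 domains (background 29.1%) and higher at 44 (background 15.3%). The rule used these widths, so the counts are not read against the backgrounds. Of the 43 wider domains, 17 also stood higher in both TNFα lists and 5 lower. Of the 43 narrower domains, 13 also stood lower in both lists and 6 higher. When every deposited peak was counted, 30 of the 43 wider domains and 34 of the 43 narrower ones still did not overlap between the groups.

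FGD6, which encodes an activator of the small GTPase CDC42, had the largest gain with TNFα. Its domain lay at an alternative start inside the gene locus, at chr12:95116672-95119673, and was covered over 1134 and 0 bp in the untreated, 599 and 0 bp in the cobimetinib and 3002 and 2904 bp in the TNFα libraries. The mean difference was 2653.5 bp. Counting all deposited peaks left 599 and 849 bp with cobimetinib and 3002 and 2904 bp with TNFα. The ranks were 8167 and 20376 against 5134 and 2887. Thus both TNFα libraries were wider and better ranked than the other 4 libraries.

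CXXC5, a zinc finger regulator that binds unmethylated CpG, had 1569 and 327 bp in the untreated, 1488 and 0 bp in the cobimetinib and 2724 and 2209 bp in the TNFα libraries. The 0 came from a peak ranked 21552, and with all peaks that library covered 2206 bp, so the gap to TNFα replicate 2 was then 3 bp. E2F3, an activator of genes for DNA replication, had 3280 and 0 bp, 1438 and 1302 bp, and 3357 and 2729 bp. With all peaks E2F3 had 2149 and 1869 bp with cobimetinib against 3357 and 2907 bp with TNFα, and untreated replicate 1 was close to the TNFα libraries. Its ranks overlapped between the treatments.

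CLDN4 had 3145 and 533 bp in the untreated, 1883 and 0 bp in the cobimetinib and 2997 and 2169 bp in the TNFα libraries, and the 0 again came from a peak just past the limit (rank 20654). With all peaks the cobimetinib libraries covered 1883 and 1931 bp and the TNFα libraries 2997 and 2972 bp. TINAGL1, a secreted matrix protein, had 2470 and 0 bp, 952 and 900 bp, and 2949 and 1981 bp, and ranks of 13691 and 7348 with cobimetinib against 2892 and 6420 with TNFα. Both measures separated the treatments for TINAGL1. CAPN2, a calcium-dependent protease, had 1248 and 1664 bp against 2714 and 2343 bp, and the largest rise in rank of any member, from 10550 and 9343 to 753 and 2109, a difference of -2.98 in mean log2 rank.

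Counts in the functional groups, which were formed after the values were seen, stand beside 12.1% wider and 20.7% narrower over all promoter regions and 21.5% each over the members, and nothing is read from them. Of the 12 epithelial and cytoskeletal domains, 4 (CLDN4, S100A11, EZR and CAPN2) were wider in both TNFα libraries and 0 narrower. In the sterol and fatty acid group, 3 of 6 domains were wider, HMGCS1 and ACSL5 among them, and 0 narrower. HMGCS1, an enzyme of cholesterol synthesis, had 1325 and 1620 bp against 2754 and 2855 bp, which all peaks moved to 1567 and 1620 bp against 2754 and 2855 bp. The HMGCS1 values of the untreated libraries were 3169 and 511 bp. FASN, the fatty acid synthase, had 1199 and 1998 bp against 2115 and 0 bp and stood lower in both TNFα lists.

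By the 20000 peaks, the largest loss with TNFα was at BMP4, a secreted ligand of the TGFβ family. The domain, chr14:53953816-53956944, covered the start and intronic sequence, with 0 and 800 bp in the untreated, 2157 and 2998 bp in the cobimetinib and 538 and 325 bp in the TNFα libraries. The mean difference, TNFα minus cobimetinib, was -2146 bp. With all peaks the treated libraries covered 2490 and 2998 bp against 1837 and 2179 bp, a smaller gap of -736 bp without overlap. By that count the largest losses were at NAALADL2 (-1451 bp), ZNF608 (-1295.5 bp) and ID2 (-1263.5 bp), and FGD6 kept the largest gain (2229 bp). Ranks of 18203 and 4269 against 13893 and 17075 overlapped.

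GULP1 had 3866 and 0 bp in the untreated, 3884 and 3998 bp in the cobimetinib and 1833 and 2573 bp in the TNFα libraries. VEZF1, a zinc finger factor, had 1687 and 0 bp, 1645 and 3174 bp, and 1513 and 0 bp. For VEZF1 all peaks gave 2727 and 3174 bp against 2045 and 1646 bp. NAALADL2 had 3262 and 967 bp, 3809 and 4272 bp, and 2733 and 2144 bp, and stood lower in both TNFα lists. ZNF608, a zinc finger factor, had 2650 and 563 bp, 3085 and 3127 bp, and 1577 and 1643 bp, with ranks of 5675 and 5890 with cobimetinib against 13590 and 11979 with TNFα. At NAALADL2 and ZNF608 both measures thus separated the treatments.

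Of 31 transcription factor domains, 7 were narrower with TNFα (ID2, the ZBTB1 and ZBTB25 domain, IRF2BP2, VEZF1, ZNF608, NFYA and NFE2L2) and 4 wider (E2F3, ZBTB5, ZBTB20 and CXXC5). Of 17 domains in the group of kinases and signaling inhibitors, 6 were narrower (DUSP4, CDK13, HIPK3, CSNK1A1, PPP3CA and the ligand gene BMP4) and 2 wider. The shares over all promoter regions were 20.7% narrower and 12.1% wider. ID2, a target of BMP signaling, had 3058 and 3571 bp with cobimetinib and 2096 and 2306 bp with TNFα, with ranks of 3467 and 3023 against 6477 and 9625. IRF1, a transcription factor induced by interferon and NF-κB, overlapped in width (2265 and 1553 bp against 2329 and 1613 bp) and stood higher in the TNFα lists, at ranks of 2024 and 7871 against 10162 and 10533. The IRF1 domain lay at an alternative start. BIRC2, an inhibitor of apoptosis that acts in TNF receptor signaling, had 1079 and 1841 bp against 2727 and 1760 bp and stood lower in both TNFα lists, with overlapping widths.

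**Figure D4:**
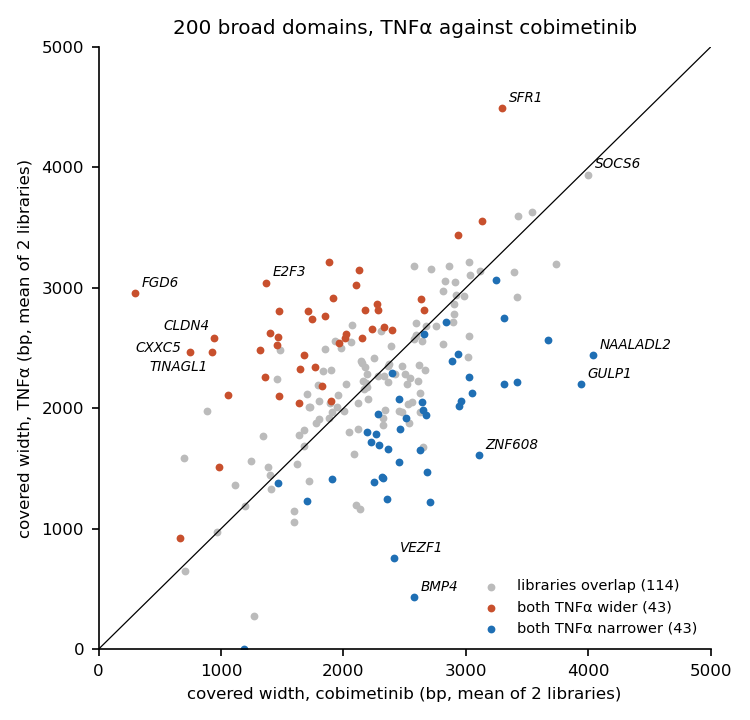
Mean covered width in bp of the 2 cobimetinib libraries (x axis) and the 2 TNFα libraries (y axis) for each of the 200 domains, with the line of equal width. Red points are the 43 domains where both TNFα libraries were wider than both cobimetinib libraries, blue points the 43 where both were narrower, and grey points the 114 where the libraries overlapped. FGD6 lies farthest above the line and BMP4 farthest below it.

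The comparison of cobimetinib with untreated cells concerns MEK inhibition, and its direction in width depended on which untreated library was kept. The series holds no library from cells given vehicle only. An effect of a vehicle therefore cannot be told apart from MEK inhibition here. The median difference in covered width, cobimetinib minus untreated, was 485 bp over the 200 domains. Without untreated replicate 2 it was -437 bp and without untreated replicate 1 it was 1364 bp. Members were chosen on width, and untreated replicate 1 was the widest library at 98 of the 200. Scaled to the base pairs covered by each library, the median covered width was 2150.7 and 1577.6 bp in the untreated libraries. It was 2158.3 and 2193.7 bp in the cobimetinib libraries. Both cobimetinib libraries were wider than both untreated libraries at 28 domains (14.0%, background 11.4%) and narrower at 1 (0.5%, background 2.6%), and without untreated replicate 2 the counts were 28 and 129. In rank, both cobimetinib libraries stood higher in the list at 53 domains (26.5%, background 22.8%) and lower at 25 (12.5%, background 11.6%). Over the next 800 promoter regions by width, the shares were 13.6% wider, 1.75% narrower, 25.1% higher in the list and 13.5% lower. The median difference in log2 rank was -0.21, against -0.45 over all promoter regions.

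By the same peaks, the 5 domains with the largest gain under cobimetinib were those of BMP4, GULP1, DUSP4, NAALADL2 and GPBP1, and the 1 narrower domain was that of AP2M1. DUSP4 had 1415 and 0 bp in the untreated, 2119 and 3298 bp in the cobimetinib and 670 and 1781 bp in the TNFα libraries, and its rank rose from 13180 and 121773 to 9406 and 6589. With all peaks the DUSP4 widths were 2464 and 468 bp in the untreated and 2638 and 3298 bp in the cobimetinib libraries. BMP4 had 0 bp in untreated replicate 1 because its peak ranked 20065. With all peaks that library covered 3129 bp of BMP4, more than either cobimetinib library, so this gain was lost. GULP1 with all peaks had 3866 and 2078 bp against 3884 and 4182 bp. NAALADL2 had 3262 and 1303 bp against 3809 and 4272 bp by the same count.

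GPBP1, a promoter-binding factor, had 1803 and 649 bp in the untreated, 3112 and 3158 bp in the cobimetinib and 3601 and 3503 bp in the TNFα libraries, with a mean gain of 1909 bp under cobimetinib. Counting all peaks gave 3186 and 1516 bp for GPBP1 in the untreated libraries, and 3339 and 3158 bp with cobimetinib, and the groups overlapped. AP2M1, a clathrin adaptor subunit, had 2880 and 1118 bp in the untreated and 1045 and 920 bp in the cobimetinib libraries, and with all peaks 2880 and 1118 bp against 1711 and 1250 bp, which overlapped. Other members that were wider under cobimetinib were KLF6 (2340 and 1201 bp against 2538 and 3519 bp), HNRNPL (2103 and 1167 bp against 2695 and 2646 bp), KDM6B (2789 and 1350 bp against 3739 and 3103 bp for its wider domain), ID2 (2940 and 1057 bp against 3058 and 3571 bp) and the receptor tyrosine kinase gene MET (1837 and 0 bp against 2352 and 2424 bp). With all peaks KLF6, KDM6B and ID2 stayed without overlap, whereas HNRNPL (3086 and 1545 bp against 3224 and 2646 bp) and MET (2614 and 844 bp against 2352 and 2424 bp) overlapped. With every deposited peak, 21 of the 28 remained without overlap.

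TNFα against untreated cells gave the same dependence on the untreated library kept. The median difference in covered width, TNFα minus untreated, was 462.5 bp, and it was -412 bp without untreated replicate 2 and 1356 bp without untreated replicate 1. Both TNFα libraries were wider at 29 domains (14.5%, background 6.22%) and narrower at 0 (background 2.36%), and without untreated replicate 2 the counts were 30 and 128. Both stood higher in the list at 39 domains (19.5%, background 12.9%) and lower at 27 (13.5%, background 15.2%). Over the next 800 promoter regions by width, the shares were 8.25% wider, 1% narrower, 16.1% higher in the list and 14.4% lower. Here too the rule used these widths, so the counts are not read against these shares. The median difference in log2 rank was -0.15, against -0.18 over all promoter regions. This comparison shares its untreated libraries with the previous one.

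By the 20000 peaks, the largest gains with TNFα over untreated cells were at FGD6 (2386 bp in the mean), GPBP1 (2326 bp), RIOK3 (1619.5 bp), MET (1595.5 bp) and SRP72 (1575.5 bp). FGD6 was wider with all peaks as well, at 1853 and 844 bp in the untreated and 3002 and 2904 bp in the TNFα libraries. RIOK3, a kinase of ribosome maturation, had 2198 and 605 bp in the untreated and 2877 and 3165 bp in the TNFα libraries. With all peaks its untreated values were 2998 and 909 bp, and the groups overlapped. SRP72, a subunit of the signal recognition particle, had 2041 and 293 bp against 2705 and 2780 bp, and 2041 and 1214 bp against 2705 and 2780 bp with all peaks. MET had 1837 and 0 bp against 2201 and 2827 bp, and with all peaks untreated replicate 1 covered 2614 bp, so the groups overlapped.

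Among the TNF and NF-κB targets, IRF1 had 1100 and 298 bp in the untreated and 2329 and 1613 bp in the TNFα libraries, and its rank rose from 16112 and 9490 to 2024 and 7871. BIRC2 had 1392 and 0 bp against 2727 and 1760 bp, and 1615 and 756 bp against 2727 and 2667 bp with all peaks. Both genes were wider in both TNFα libraries than in both untreated libraries. By the cobimetinib widths given above, IRF1 was also wider in both cobimetinib libraries than in both untreated libraries. Its gain over untreated cells was therefore not particular to TNFα. For BIRC2 the cobimetinib and untreated libraries overlapped. With every deposited peak, 17 of the 29 wider domains remained without overlap.

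**Figure D5:**
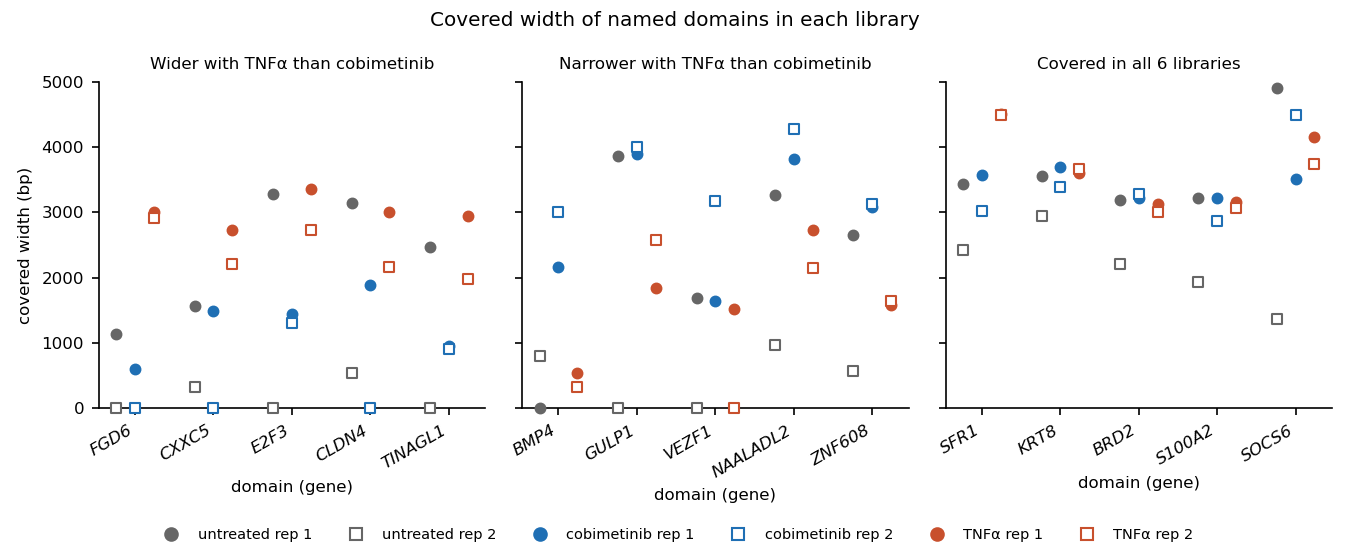
Covered width in bp of 15 named domains in each of the 6 libraries, where circles are replicate 1 and squares replicate 2. By the 20000 peaks, the left panel has the 5 domains with the largest gain in TNFα over cobimetinib libraries, the middle panel the 5 with the largest loss, and the right panel 5 domains that were covered in every library. A value of 0 means no peak among the 20000, as for BMP4 in untreated replicate 1, whose peak ranked 20065.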

How the data were processed

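H3K27ac CUT&RUN peak lists of 6 libraries were analysed, 2 per condition, grouped by the labels. Per the study's methods, the authors trimmed reads with BBDuk, aligned them to hg38 with BWA 0.7.15, kept mapping qualities above 10 and called peaks with MACS2 2.1.1 without IgG background at a p-value of 0.01, in paired-end and single-end modes that were merged with bedtools. The deposited score of each peak, a whole number of 20 or more, rises with depth, so scores were only ranked within a list. Peaks wider or narrower for technical reasons, such as depth, change covered widths directly.

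Here peaks were pooled, merged and matched to GENCODE release 44 starts in hg38 with Python 3.11.15 and pandas 2.3.3, and figures were drawn with matplotlib 3.10.9. Ties in score kept the file order. Canonical starts are those that GENCODE marks as such. Motifs were searched on both strands. The code was tested on simulated peak lists with known domains. Groups were compared by medians over domains and by counts of domains whose libraries did not overlap. Planned permutation tests of library medians are not given, since widths chose the members and 2 against 2 libraries cannot go below p = 0.333. Per the study's methods libraries came from replicates of the treatments. Whether these were separate cultures is not stated, so their spread may be technical. The alternatives are listed in the closing section.

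The members, gene lists and comparisons were chosen with earlier results of these data known. The genes named are the 10 widest domains, the 10 with the best mean rank, up to 5 per contrast and direction with the largest difference in mean covered width among domains without overlap, up to 4 per gene list, the 3 regions nearest to either side of 4000 bp, and the 3 domains with the most genes. Others (CAPN2, HMGCS1, FASN, ACSL5 and the genes of the functional groups) were chosen after their values were seen. IgG libraries were not used here, and some items are not reported here.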

Additional observations from a re-analysis of the deposited data

How the results depend on the processing

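The number of promoter regions of 4000 bp or more was 14. It was 31 with a merge distance of 500 bp, 157 with a width of 3000 bp and 0 with a width of 5000 bp, and it ran from 9 to 14 when single libraries were left out. Of the 200 members, 133 were found again with the 500 bp merge, 143 to 199 under the other settings of peaks per library, merge distance, start distance and ties, and 153 to 196 when single libraries were left out. Leaving out libraries one by one gave medians of -182 to 199 bp for covered width, TNFα minus cobimetinib, of -437 to 1364 bp for cobimetinib minus untreated and of -412 to 1356 bp for TNFα minus untreated. For log2 rank the ranges were -0.08 to 0.18, -0.36 to -0.12 and -0.20 to -0.11. The median of 3.25 bp became -10.2 bp with all deposited peaks, 7.75 bp by longest peak and 10.7 bp when scaled to the base pairs covered by each library, and scaling also gave 285 bp for cobimetinib and 182 bp for TNFα against untreated.

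With 1 library fewer on 1 side, the counts of domains without overlap rise by construction. For TNFα against cobimetinib they ran from 51 to 95 wider, 48 to 99 narrower, 62 to 85 lower in the list and 61 to 77 higher. For cobimetinib against untreated they ran from 28 to 182 wider, 1 to 129 narrower, 38 to 68 lower and 71 to 99 higher. For TNFα against untreated they ran from 30 to 184 wider, 0 to 128 narrower, 43 to 76 lower and 62 to 94 higher. The wide ranges of the untreated comparisons come from the 2 untreated libraries, of which replicate 2 had the narrow peaks.

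Replicate numbers are not stated to mark a shared batch. Correlations across domains of the differences between replicates 1 and 2 ran from -0.10 to 0.24. They cannot decide whether samples with the same number shared a batch, which was not tested. With the replicate block, the medians stayed at 3.25, 485 and 462.5 bp by construction. Counts under the pairing became 45 wider and 10 narrower for cobimetinib against untreated, 61 wider, 9 narrower and 65 higher in the list for TNFα against untreated, and stayed within 1.5 times of the unpaired counts elsewhere. The alternatives that used all deposited peaks for these counts, left out mitochondrial domains, chose members in the third condition or counted members found again were added after seeing the data. Widths without read depth limit what the lists can resolve.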
